A study of Mus musculus with 4 samples.

Results

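YAP peaks linked to 10 genes that control the G1 phase of the cell cycle were described in mouse epidermis: the cyclin genes Ccnd1, Ccnd2, Ccnd3, Ccne1 and Ccne2, the kinase genes Cdk4 and Cdk6, and the inhibitor genes Cdkn1a, Cdkn1b and Cdkn2a. A peak belonged to one of these genes when its summit, the highest point of the peak, lay inside the gene's span, or within 100 kb with no other protein-coding gene nearer. By this rule 34 of 36576 WT peaks and 14 of 14879 KO peaks were members, and the rule used no measured height. The samples were chromatin immunoprecipitations of YAP followed by sequencing (ChIP-seq), from epidermis of adult Bmal1 WT and Bmal1 KO mice aged 18 to 25 weeks and killed at Zeitgeber time 4 (4 h into the light phase). The treatment note calls the knockout Bmal1cKO, and the labels do not say which cells had lost the gene or how many animals were used. With 1 pooled peak list per genotype, the values carry no replicate error and no test was run. YAP peaks do not read the Bmal1 transcript or its deletion, so the genotype labels were not checked by them.

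Cells leave G1 when D-type cyclins, bound to CDK4 or CDK6, and then E-type cyclins, bound to CDK2, phosphorylate the retinoblastoma protein and release E2F factors. CIP/KIP inhibitors, such as p21 and p27, and INK4 inhibitors, such as p16, hold these kinases back. YAP is a co-activator that reaches DNA through TEAD factors and promotes proliferation of basal keratinocytes. BMAL1, with CLOCK, activates circadian genes through E-box letters in DNA.

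The heights of peaks are given as recovered reads, the whole number of ChIP reads at the summit that solves the authors' fold and −log10 p. The evenly spread background, solved separately in each list, was 9.63 reads in both. Every summit had a solution within 0.01 of a whole read in both lists. No called summit had fewer than 28 reads in WT or 29 in KO. A YAP peak was linked in WT to 10 of 10 keratinocyte marker genes, 1 of 6 fibroblast, 1 of 5 T cell, 0 of 4 Langerhans or antigen-presenting, 5 of 5 melanocyte and 1 of 4 endothelial marker genes. YAP peaks are not transcript levels, so these counts describe the lists and do not measure the cell types.

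All 10 genes carried a YAP peak in WT, and 7 of them carried one in KO. Over all protein-coding genes, 53.2% had a linked WT peak and 30.1% a linked KO peak. Of the 34 WT peaks, 14 were kept, meaning that at least 1 bp of them was covered by a KO peak, and 20 were WT-only. This share of 41.2% lay near the 39.1% of all WT peaks. Its exact 95% interval, 24.6 to 59.3, treats the 34 peaks as independent draws and does not measure the spread between animals. The 14 KO peaks each overlapped a WT peak, as did 99.0% of all KO peaks. A kept peak was linked to 7 of the 10 genes, against 30.0% of all genes and 56.3% of genes with a WT peak. Ccnd2, Ccne2 and Cdkn1b had 4, 2 and 3 WT peaks and no kept one.

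**Figure D1:**
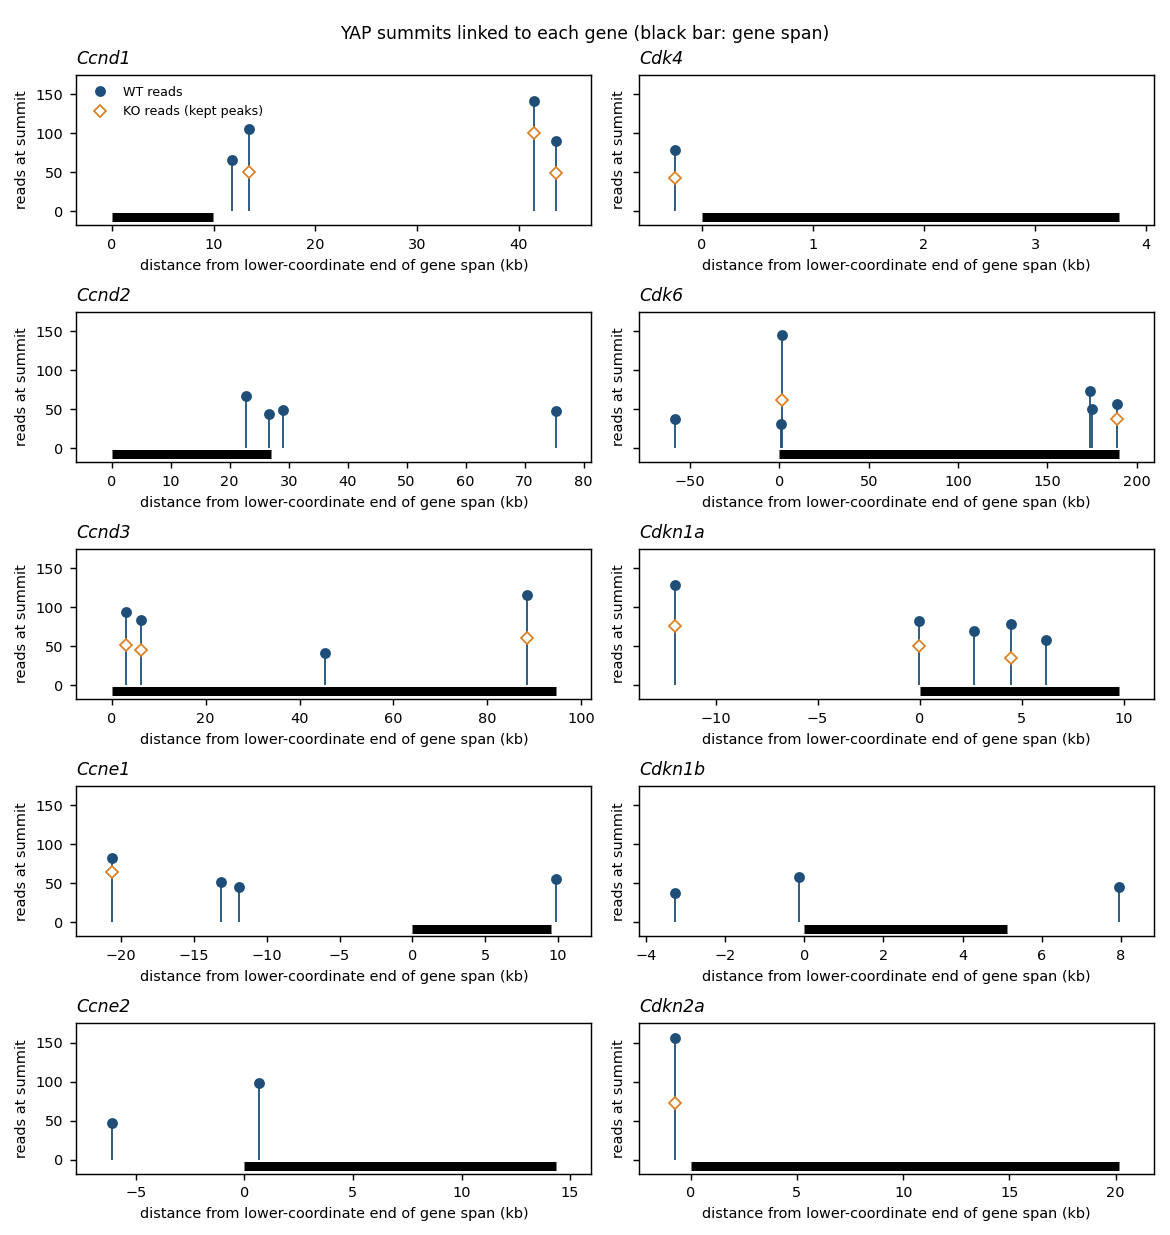
Position of each WT summit (horizontal axis, kb from the lower-coordinate end of the gene span, which is drawn as a black bar) and its recovered reads (vertical axis) in WT (filled circles) and, for kept peaks, in KO (open diamonds), 1 panel per gene. The peaks with the most WT reads lay at Cdkn2a (156), Cdk6 (145) and Ccnd1 (141), and Ccnd2, Ccne2 and Cdkn1b show no KO diamond.

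Among the D-type cyclins, which bind CDK4 and CDK6, 6 of 12 WT peaks were kept. They were 3 of 4 at Ccnd1, 3 of 4 at Ccnd3 and 0 of 4 at Ccnd2. From their WT reads, 6.24 of the 12 would be kept by the shares of all WT peaks.

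At Ccnd1, which encodes cyclin D1, all 4 summits lay outside the gene span of chromosome 7 from 144929931 to 144939831, on its higher-coordinate side. They formed a near pair and a far pair. In the near pair, the summit 1928 bp from the span had 66 WT reads and was WT-only, and the summit 3595 bp from the span had 105 reads in WT and 50 in KO. In the far pair, the peak at chr7:144970925-144971763, 31606 bp from the span, had 141 WT and 100 KO reads, and its neighbour at 33735 bp had 90 and 49 reads. The 100 KO reads at the far peak were the most at any of the 14 kept peaks. Its log2 KO to WT ratio above background was −0.54, against −1.24 and −1.03 at the other kept peaks of the gene. A ratio of −1 is a KO signal at 50% of the WT signal.

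At Ccnd3, which encodes cyclin D3, all 4 summits lay inside the span of chromosome 17 from 47505051 to 47599689, and 3 had KO reads. Near the upstream start, the summits 3107 and 6228 bp into the gene had 94 WT and 51 KO reads, and 84 and 45 reads. A middle summit had 42 WT reads and was WT-only. The peak with the most reads, at chr17:47593117-47593797, had 116 in WT and 60 in KO, and its summit lay 20 bp after the downstream of the 2 starts that RefSeq lists for the gene. Its KO summit was 5 bp away. The window of the upstream start, 250 bases before to 50 after, overlapped no WT peak. The log2 ratios of the 3 kept peaks, in order along the gene, were −1.03, −1.07 and −1.08. At the one with 84 WT reads the local background, the caller's estimate at that place in ChIP reads, was 11.2 in WT and 17.8 in KO, and its part in the ratio was not tested. With each list's own local background subtracted, the ratios were −1.04, −1.42 and −1.10.

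The 250 bases before the downstream Ccnd3 start are shown because they sit under the tallest peak of the gene. Capitals mark CATTCC, the core letters that TEAD proteins recognise, 17 bases before the start and 37 bp from the WT summit (RefSeq, GRCm38.p6, plus strand).
Ccnd3 downstream start, chr17:47593217-47593466: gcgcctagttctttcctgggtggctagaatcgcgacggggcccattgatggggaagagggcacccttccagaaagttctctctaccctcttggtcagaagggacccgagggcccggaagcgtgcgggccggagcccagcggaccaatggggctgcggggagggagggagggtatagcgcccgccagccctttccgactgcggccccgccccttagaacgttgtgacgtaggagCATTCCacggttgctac

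At Ccnd2, which encodes cyclin D2, the 4 WT summits had 67, 44, 49 and 48 reads and none was kept. The summits with 44, 49 and 48 reads also lay inside 9330179D12Rik, a long non-coding RNA gene. Of the genes with 4 WT peaks, 15.7% had none kept. The summit with 67 reads, inside the gene, lay over a raised background. Its local background was 17.3 reads, and its deposited fold was only 3.65. The Ccnd1 peak of 66 reads had a local background of 10.1 and a fold of 5.86, and it was WT-only as well. A part of local background in which peaks were kept was not tested. Ccnd2 also had no KO summit within 100 kb of its span, the nearest lying 178163 bp away, while 5 WT summits lay within 100 kb. Of all genes with 5 WT summits that near, 13.4% had no KO summit.

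The E-type cyclins, which partner CDK2 after the D-type cyclins have acted, kept 1 of 6 WT peaks (exact 95% interval 0.421% to 64.1%). The interval treats the 6 peaks as independent draws. From the reads of these peaks, 1.98 kept peaks would follow the shares of all WT peaks.

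At Ccne1, which encodes cyclin E1, the kept peak lay 20632 bp from the span on the lower-coordinate side, beyond the end of the gene, which is on the minus strand. It had 83 WT and 65 KO reads, a log2 ratio of −0.41, the least reduced of the 14 kept peaks. Its raw KO to WT read ratio of 0.783 had a counting interval of 0.557 to 1.10, which includes equal reads. The other summits of Ccne1 were weaker in WT, with 52, 46 and 55 reads, and were WT-only. The summit with 55 reads lay 343 bp before the start of the gene. The 3 summits beyond the end of the gene, the kept one included, lay inside Gm30771, which RefSeq lists as a long non-coding RNA gene.

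At Ccne2, which encodes cyclin E2, a wide peak of 1180 bp at chr4:11190609-11191788 had 98 WT reads and a deposited fold of 7.66, yet overlapped no KO peak. Its summit lay inside the gene, 668 bp from the lower-coordinate end of the span, and also inside A630034I12Rik, a long non-coding RNA gene. The nearest KO summit was 34768 bp away. Of all WT peaks with 90 to below 100 reads, 88.7% were kept. At least as many reads as here were found at 117 of 22261 WT-only peaks (0.526%). That limit was the reads of the Ccne2 peak itself, so the low share follows in part from the choice and is no test. The other Ccne2 peak had 47 WT reads and was WT-only as well. Of genes with 2 WT peaks, 43.2% had none kept.

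**Figure D2:**
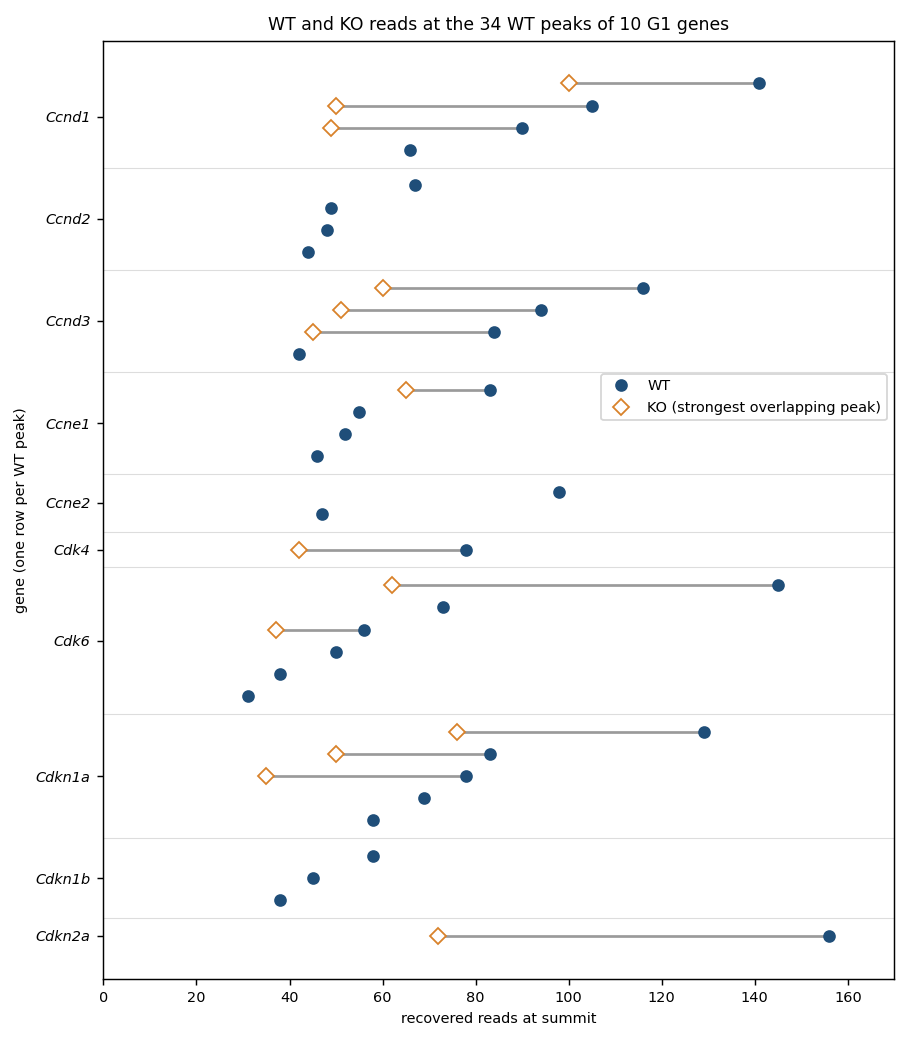
Recovered reads at the summit (horizontal axis) for each of the 34 WT peaks, 1 row per peak and grouped by gene, in WT (filled circles) and at the strongest overlapping KO peak (open diamonds). At all 14 kept peaks the KO value lies to the left of the WT value, and the Ccne2 peak with 98 WT reads is the tallest without a KO value.

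The kinase genes kept 3 of 7 WT peaks, where 2.39 would follow from their WT reads and the shares of all WT peaks. Cdk4 and Cdk6 encode the catalytic partners of D-type cyclins.

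Cdk4 had a single peak, at its start, at chr10:127062916-127063761. The summit lay 242 bp before the start of the gene, with 78 WT and 42 KO reads (log2 ratio −1.08), and the KO summit was 23 bp away. The KO peak was 366 bp wide against 846 bp in WT, so it would be lost if 50% reciprocal overlap were required. The 250 bases before the Cdk4 start are shown because the YAP summit lay among them and because they repeat CACGTG, the E-box letters that clock and MYC-family proteins recognise. Capitals mark the 4 E-boxes, whose first bases lie 172, 118, 98 and 11 bases before the start. The nearest lay 70 bp from the WT summit (RefSeq, GRCm38.p6, plus strand).
Cdk4 start, chr10:127063285-127063534: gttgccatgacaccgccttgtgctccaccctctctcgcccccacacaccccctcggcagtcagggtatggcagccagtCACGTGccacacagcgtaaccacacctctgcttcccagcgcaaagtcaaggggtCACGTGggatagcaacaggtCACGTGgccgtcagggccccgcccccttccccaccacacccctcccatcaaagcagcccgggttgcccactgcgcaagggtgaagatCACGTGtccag

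At least 4 E-boxes of these letters occurred in 8 of 32851 promoter windows of mouse genes (0.0244%), and at least 1 in 7.15%. The 8 windows belonged to 6 genes. The limit of 4 was taken from the Cdk4 window itself, so the low share follows in part from that choice and is no test. These counts describe letters and do not show which proteins were bound.

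Cdk6 had the most WT peaks of the 10 genes, 6, over a span of 190 kb, the longest. Its tallest peak, at chr5:3341977-3342840, had 145 WT and 62 KO reads. It lay inside the span and 1541 bp before the start in the RefSeq promoter table, within the long non-coding RNA gene Gm36470. The log2 ratio of −1.37 was below the interquartile range of −1.12 to −0.79 for kept peaks with 120 to below 150 WT reads. The raw read ratio was 0.428 (counting interval 0.312 to 0.580). The local background at this summit was 9.63 reads in WT and 13.1 in KO, and its part in the ratio was not tested. With each list's own local background subtracted, the log2 ratio was −1.47.

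The other end of Cdk6 held 3 summits, with 73, 50 and 56 WT reads. Only the weaker peak of 56 reads was kept, with 37 KO reads, while the peak of 73 reads was WT-only. This order was the reverse of that over the whole list, where 54.9% of WT peaks with 70 to below 80 reads were kept and 13.4% of those with 50 to below 60. The remaining Cdk6 peaks were weak, with 38 and 31 reads, and WT-only.

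The inhibitor genes kept 4 of 9 WT peaks, with 3 of 5 at Cdkn1a, 1 of 1 at Cdkn2a and 0 of 3 at Cdkn1b. From the WT reads of the 9, the shares of all WT peaks would give 3.93 kept.

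Cdkn1a encodes p21, an inhibitor that p53 induces. Its tallest peak lay 11997 bp before the upstream start, at chr17:29078658-29079350, with 129 WT and 76 KO reads (log2 ratio −0.85). The summit was inside Trp53cor1, the gene of a p53-induced long non-coding RNA. RefSeq lists 2 starts for Cdkn1a, and each had a WT summit within its window. The summit 31 bp before the upstream start had 83 WT and 50 KO reads, and the KO summit was 1 bp away. The summit 149 bp before the downstream start had 69 WT reads over a local background of 18.7, the highest at any member peak, and was WT-only. Inside the gene, a peak of 1503 bp, the widest of the 34, had 78 WT and 35 KO reads. Its log2 ratio of −1.43 was the lowest of the 14. Local background there was 14.7 reads in WT and 9.63 in KO, and its part in the ratio was not tested. With local background subtracted the log2 ratio was −1.32, and ratios at Cdk6 (−1.47), Ccnd3 (−1.42) and Cdkn2a (−1.37) were lower. A last summit had 58 WT reads and was WT-only.

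The 250 bases before the upstream Cdkn1a start are shown because the summit there was retained in KO at nearly the same base. Capitals mark 20 letters that match the p53 response element, a tandem pair of 10-base half-sites, with 1 letter off. The element was looked for after the letters under the summit had been seen. It begins 51 bases before the start, 20 bp from the WT summit (RefSeq, GRCm38.p6, plus strand).
Cdkn1a upstream start, chr17:29090729-29090978: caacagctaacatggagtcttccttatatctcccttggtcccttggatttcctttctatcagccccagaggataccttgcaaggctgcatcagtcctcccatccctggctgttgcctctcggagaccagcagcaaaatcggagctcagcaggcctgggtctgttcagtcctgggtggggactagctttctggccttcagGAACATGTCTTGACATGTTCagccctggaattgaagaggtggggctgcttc

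Such an element, with no gap between its half-sites, occurred in 22 of 32851 promoter windows (0.0670%), and among the windows of the 10 genes in this 1 alone. The match is a description and does not show p53 at this site.

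Cdkn2a encodes the INK4 inhibitor p16 and, from another start, ARF, which stabilises p53. It had 1 peak, at chr4:89273312-89274152, with 156 WT reads, the most of the 34, and a deposited fold of 14.2. The peak was not at a start. It lay 754 bp beyond the lower-coordinate end of the minus-strand gene, 8473 bp downstream of the nearer start, and neither start window overlapped a peak. KO had 72 reads there (log2 ratio −1.23), below the interquartile range of −0.96 to −0.67 for kept peaks with at least 150 WT reads. The local background was 9.63 reads in WT and 15.4 in KO, and its part in the ratio was not tested. With local background subtracted, the log2 ratio was −1.37.

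Cdkn1b encodes p27. Its 3 WT summits had 38, 58 and 45 reads, all at strengths that were seldom kept anywhere, and none was kept. The summit with 58 reads lay 125 bp before the start of the gene. Of genes with 3 WT peaks, 26.3% had none kept.

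Which of the 34 peaks were kept followed their WT reads. Kept peaks had 56 to 156 WT reads with a median of 92.0, and WT-only peaks 31 to 98 with a median of 49.5, so the ranges overlapped. Over all WT peaks the medians were 92.0 for kept and 51.0 for WT-only peaks. With at least 80 reads, 11 of 12 member peaks were kept, against 91.1% of all WT peaks, and the exception was Ccne2. Below 80 reads, 3 of 22 were kept, against 18.2%. The shares of all WT peaks in the same classes of reads added up to 14.5 kept peaks of 34, and 14 were found. By gene, these sums were 0.433 at Ccnd2, 0.185 at Cdkn1b and 0.925 at Ccne2, the genes with no kept peak, and 3.17 at Ccnd1, 2.64 at Ccnd3 and 2.75 at Cdkn1a, with 3 kept each.

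**Figure D3:**
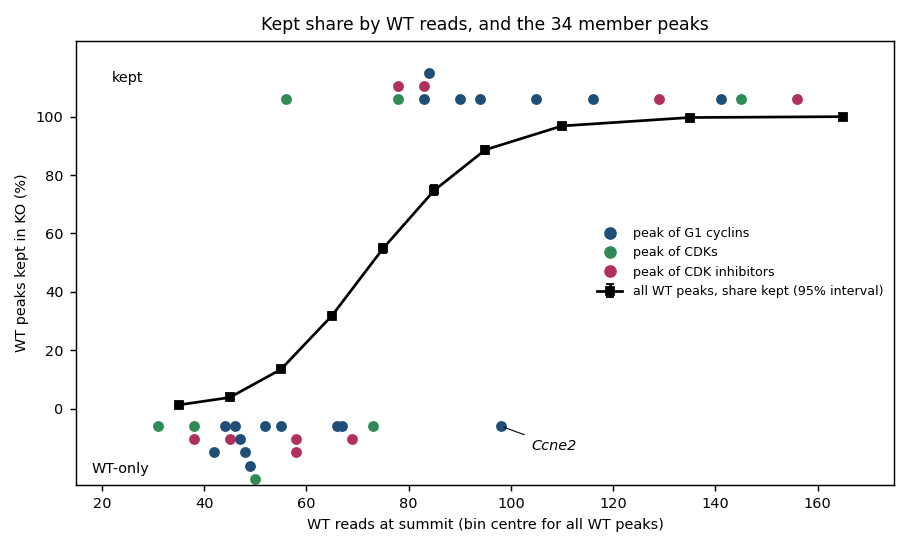
Share of all WT peaks kept in KO (vertical axis, %) by recovered WT reads (horizontal axis; the last point is the class of 150 reads or more), with exact 95% intervals, and the 34 member peaks as points above the curve (kept) or below it (WT-only), coloured by role and stacked for legibility. The member peaks change from WT-only to kept where the curve rises, and the labelled Ccne2 peak with 98 reads lies apart among the WT-only peaks.

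At all 14 kept peaks KO had fewer reads than WT, as at 99.5% of kept peaks in the whole list. The 14 KO values ran from 35 to 100 reads with a median of 50.5. The log2 KO to WT ratio above background had a median of −1.05, a KO signal of 0.483 times the WT signal, and ran from −1.43 to −0.41 (interquartile range −1.19 to −0.85). Over all kept WT peaks the median was −0.88 (interquartile range −1.07 to −0.69).

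The ratio was below −1 at 9 of the 14 peaks, against 32.9% of all kept peaks. From the classes of WT reads, 5.24 of 14 would be below −1. Some of the 9 lay just past −1, such as −1.03 at Ccnd1 and −1.03 and −1.07 at Ccnd3. In 10 of 14 the ratio was below the median of kept peaks in the same class of reads. Against the interquartile range of their class, 6 of the 14 lay below, 6 within and 2 above. With each list's own local background subtracted, 8 of 14 were below −1, against 34.3% of all kept peaks, and the medians were −1.02 and −0.88. The local background was lower in KO than in WT at 10 of the 14 peaks and higher at 4. Over all kept peaks it was higher in KO at 31.1%. The Ccnd1 ratio of −1.24 became −1.14 with local background subtracted. These 14 values were few, and no interval was set on the difference. By role, the medians were −1.03 over 7 cyclin peaks, −1.08 over 3 kinase peaks and −1.05 over 4 inhibitor peaks, and the ranges of the roles overlapped. A KO value exists only where a KO peak was called, so weak WT peaks enter only where KO was high enough, and the 20 WT-only peaks have no KO value.

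**Figure D4:**
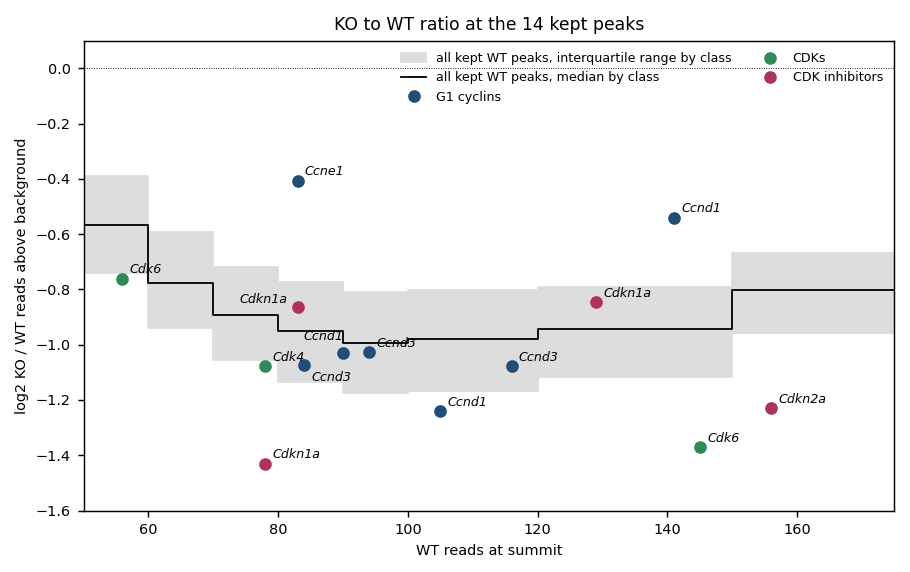
The log2 ratio of KO to WT reads above background (vertical axis) against WT reads (horizontal axis) at the 14 kept peaks, coloured by role, over the median (line) and interquartile range (band) of all kept WT peaks by class of reads, the last class being 150 reads or more. Both Cdk6 peaks, the Cdk4 and Cdkn2a peaks, the Cdkn1a peak at −1.43 and the Ccnd1 peak at −1.24 lie below the band, and the Ccne1 peak and the far Ccnd1 peak above it.

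The kept peaks were also narrower in KO. Member peaks that were kept had a median width of 766 bp in WT and 475.5 bp in KO, and the KO peak was narrower in 14 of 14. This was so for 96.0% of all kept peaks. The summits moved by 1 to 143 bp, with a median of 45.5 bp. Kept peaks overlap a KO peak by definition, which limits how far a summit can move. The shift over all kept peaks is not given here.

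Peaks of the G1 genes were found inside the genes, at their ends and at a distance. Inside the spans lay 15 of 34 summits, against 57.2% of all linked WT peaks, and 6 of them were kept, compared with 8 of 19 outside. Within 2 kb of an end of the linked span lay 12 summits, against 28.7% of all linked WT peaks. Of these 12, 5 were kept, and of the other 22, 9 were kept. All genes but Ccnd3 had such a summit. Within 1 kb lay 8, and 8 summits lay over 10 kb outside the gene. Such distant peaks were linked by distance alone, and no contact with the gene was measured.

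RefSeq start windows were found for 7 of the 10 genes, 10 windows in all, and not for Ccnd1, Ccnd2 and Ccne2. A WT peak overlapped 6 of the 10 windows, against 25.6% of all promoter windows, and 3 of these 6 peaks were kept. The windows with a kept peak were those of Cdk4, the upstream Cdkn1a start and the downstream Ccnd3 start, and those with a WT-only peak were Ccne1, Cdkn1b and the downstream Cdkn1a start. Exact matches on either strand were sought of CATTCC for TEAD, TGANTCA for AP-1 and CACGTG for the E-box, which do not overlap each other in these windows. These letters were in 14.7%, 7.81% and 7.15% of all 32851 windows. CATTCC was in the downstream Ccnd3 window alone, CACGTG in those of Cdk4 and Cdk6, and TGANTCA in none of the 10. The Cdk6 window, with 1 E-box, overlapped no peak. The absence of these letters from a window says nothing of binding elsewhere in a peak.

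Other genes of the G1 to S transition and the kinases around it gave a like share of kept peaks. A WT peak was linked to 30 of 36 such genes and a kept one to 18, against 53.2% and 30.0% of all protein-coding genes. Of their 87 WT peaks, 36 were kept (41.4%), against 39.1% of all WT peaks. From their WT reads, 35.1 would be kept. The median log2 ratio at the kept peaks was −0.96, against −0.88 over all kept WT peaks. Below −1 were 13 of 36, against 32.9% of all kept peaks and 9 of 14 at the 10 G1 genes. The most WT reads were at Wee1, a kinase that holds back CDK1, with 237 in WT and 178 in KO (log2 ratio −0.43). Next were the activator E2f2 with 153 and 82 reads, the CDK-activating phosphatase gene Cdc25a with 153 and 93, Rb1, the retinoblastoma gene, with 150 and 82, and Fbxw7, whose product targets cyclin E for degradation, with 133 and 62.

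Among these genes 12 had WT peaks and none kept. Their tallest peaks were at Ccnh (81 WT reads) and Cdk7 (72), subunits of the CDK-activating kinase, at E2f5 (73) and E2f7 (72), and at Cdkn1c (59), which encodes the inhibitor p57. No peak was linked to Cdk2, Cdk1, Ccna1, Ccnb2, E2f4 or Cks1b. Cdk2, the partner of the E-type cyclins, thus had no linked peak, while both partners of the D-type cyclins did. Over all protein-coding genes 53.2% had a linked WT peak, so a single gene without one is common. Summits near Cdk2 but nearer to another gene are not given here.

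A further 63 WT summits lay within 100 kb of the 10 genes but nearer to another protein-coding gene, and 25 of them were kept. Counted with these, 97 summits lay in reach of the 10 genes and 39 were kept. Both counts lay near the 39.1% kept of all WT peaks. Around Cdkn2a they were the 6 peaks of Cdkn2b, which encodes the INK4 inhibitor p15, with at most 94 WT reads and 1 kept. Around Cdkn1b they were 6 at Crebl2 (3 kept, up to 193 WT reads) and 1 each at Ddx47, Gpr19 and Apold1. Around Cdkn1a they were 5 at Cpne5 (3 kept, up to 183 reads), 4 at Srsf3, 3 at Stk38 and 3 at Rab44, whose 3 were all kept.

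Around Cdk4 the nearer genes were B4galnt1 with 4 peaks, Ctdsp2 with 3 (up to 147 WT reads), Os9 with 3 and Agap2, Mettl1 and Tspan31 with 1 each. Around Cdk6 they were Fam133b and Rbm48 with 1 each. Around Ccnd3 they were AI661453 with 4 peaks, Taf8 and Gm20517 with 2 each and Frs3, Med20, Tomm6 and 1700001C19Rik with 1 each, the last with 224 WT reads and kept. Gm20517 and Med20 shared a summit, as did Frs3 and Tomm6, so these 12 links came from 10 summits. Around Ccne2 they were Trp53inp1 with 3 peaks, Ints8 with 1 and Ndufaf6 with 1, the last with 184 WT reads and kept. LTO1 near Ccnd1, Tigar near Ccnd2 and Uri1 near Ccne1 had 1 peak each, all WT-only. Ccnd2 was thus the single one of the 10 genes with no kept summit, of its own or of a neighbour, within 100 kb.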

How the data were processed

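YAP ChIP-seq peaks of WT and KO epidermis were used, 1 pooled list per genotype. The inputs were not analysed here. Per the submitters' processing notes, MACS2 2.1.1, SAMtools 1.5 and Trimmomatic 0.36 were used with the build mm10, in roles that are not stated. No source used here gives the aligner, the control or the make-up of a pool. The authors' deposited lists give, per peak, a fold (a ratio of summit signal to background), a −log10 p and −log10 q, and a score that equals 10 times −log10 q. The labels state 25 to 50 M reads per sample, and the depth behind each pool is not otherwise stated. The evenly spread background, solved separately for each list, came to the same 9.63 reads in WT and KO.

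Summit reads and local background were solved from the deposited fold and −log10 p under the caller's Poisson formulas, with the scaling of each list (0.694 for WT, 0.842 for KO) searched for. On lists simulated with these formulas, 100.0% of reads were exact, which checks the solving and not the formulas. Each kept peak took the KO value of the strongest KO peak it overlapped, and 9.63 background reads were subtracted on both sides. Exact intervals on shares treat peaks as independent draws and do not measure the spread between animals. PCR copies are not independent, so exact intervals on read ratios cover counting error only.

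Gene spans and start windows came from RefSeq GRCm38.p6 (mm10), with 21631 protein-coding genes on autosomes and X. Overlap counts were the same with bedtools 2.31.1. Named genes were all 10 members, up to 5 other G1/S genes by WT reads and up to 5 with no kept peak, and the nearer neighbour genes. The members and lists were chosen with earlier results of these data known. Peak sequences away from starts were not used here. Alternatives were other overlap rules, stricter lists, other distances and other background subtraction.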

Additional observations from a re-analysis of the deposited data

How the results depend on the processing

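The kept share of 41.2% ran from 32.4% to 52.9% under 50% reciprocal overlap, summits within 200 bp, the higher 50% of each list by score, linking within 10 or 50 kb and every summit within 100 kb. It was 81.2% when the WT list was shortened by score to the length of the KO list, which holds only 16 of the 34 member peaks, those of high score. The shares of all WT peaks under these settings are not given here. Nearness of the members to the whole list was therefore shown for the main rule only. A WT peak was linked to 8 of the 10 genes with either stricter list and to 10 with the other linking rules. A kept peak was found for 6 to 9 of the 10 genes under these settings. The median log2 ratio was −0.89 without background subtraction, which by construction draws ratios toward 0, and −1.02 with local background, a setting chosen after seeing the data. Without subtraction, neither the median over all kept peaks nor the number of peaks below −1 is given here. Within 5 kb of a span end lay 20 summits, a wider window. Under reciprocal overlap Cdk4 had 0 kept peaks, and with the reduced list Cdk6 had 1. The other 28 counts per gene differed by at most 1.5 times. Summits were called in KO down to 29 reads, and an effect of depth on weaker peaks was not tested. No paired analysis was possible because there was a single pool for each genotype.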
